A study of Mus musculus with 12 samples.

Results

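Fat cell regulators are the genes that turn a mesenchymal progenitor into an adipocyte, the lineage that competes with the osteoblast. The 10 genes described here were chosen by name, as that rival lineage, with earlier results of these data known: the transcription factor genes Cebpb, Cebpd, Cebpa, Pparg and Prdm16, and the fat cell product genes Cfd, Slc2a4, Fabp4, Adipoq and Plin1. The name fat cell regulators is used below for all 10, although the product genes are not regulators in that sense. They were 10 of 21887 protein-coding genes of the RefSeq table on chromosomes 1 to 19, X and Y, and all of them matched. For each gene, the peaks of 6 lists that overlapped the gene or 5 kb on either side of it were collected. The lists came from chromatin immunoprecipitation with an antibody against MACF1, a protein that crosslinks actin and microtubules, in MC3T3-E1, an osteoblast line derived from mouse calvaria. They held 3 control and 3 MACF1 knockdown libraries, each called against its own input, and both groups carried the library labels 1, 2 and size3. No source used here states the agent used for the knockdown, what size3 means, or whether libraries came from separate cultures, so a p-value measures only the spread between these libraries. Protein-bound DNA does not report expression, so neither the knockdown nor the cell type was checked from these files.

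In the textbook order of fat cell formation, C/EBP beta and C/EBP delta, encoded by Cebpb and Cebpd, act early and turn on Cebpa and Pparg. PPAR gamma, encoded by Pparg, and C/EBP alpha then maintain each other and switch on the genes of the mature adipocyte. PRDM16 is a cofactor that directs cells to brown and beige fat. Osteoblasts and adipocytes share a progenitor, and PPAR gamma is known to restrain bone formation.

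The libraries stood far apart in list length and depth. Among the knockdown lists, label 1 had 21398 peaks, label 2 had 4513 and size3 had 17592, where the control lists had 772, 198 and 2196. After duplicate removal the knockdown immunoprecipitates kept 18454330, 5575205 and 8175173 reads, and their control counterparts 26196138, 33085606 and 10698067. The redundant rate, the share of reads removed as duplicates, was 0.01 and 0.02 in the size3 libraries and 0.16 to 0.65 in the others. The false discovery rate, which the peak caller obtains by swapping immunoprecipitate and input, was 100% for 99.7% of peaks in control 1, for 100% in control 2 and for 98.4% in knockdown 2. List length was greater in every knockdown library than in every control library, depth differed as well, and their part in the counts given here was not tested.

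Of the transcription factor genes, the C/EBP genes and Pparg had a knockdown 1 peak across at least 1 end. Prdm16 had peaks only inside the gene. Of the product genes, Cfd lay wholly under a knockdown 1 peak, Plin1 and Slc2a4 had peaks in or near the gene, and Fabp4 and Adipoq had none within 5 kb in any library. Knockdown 1 had a peak at 8 of the 10 genes, knockdown size3 at 6 and knockdown 2 at 0. Control 1 had a peak at 1 of them, Pparg, and control 2 and control size3 at 0. The mean was 4.67 ± 4.16 (SD, n = 3) genes in knockdown and 0.333 ± 0.577 (SD, n = 3) in control libraries, a difference of 4.33 that lay within the spread of the libraries (exact two-sided permutation p = 0.4, 20 assignments, of which the smallest possible p is 0.1). The groups overlapped because knockdown 2 had no peak at these genes. The difference was 6.67 without knockdown 2 and 2.67 without knockdown 1. Within a label, the number of these genes with a peak was 8 against 1 for label 1, 0 against 0 for label 2, and 6 against 0 for size3. Counted per 1000 peaks of each list, the direction turned: the mean was 0.238 in knockdown and 0.432 in control libraries, a difference of -0.193 (exact permutation p = 1). Only control 1 contributed to that control mean, at 1.3 through 1 peak at Pparg, and the other control libraries were at 0. Knockdown 1 stood at 0.374, knockdown 2 at 0 and knockdown size3 at 0.341.

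The share of all protein-coding genes with a peak in the gene or within 5 kb gives the background to these counts. Knockdown 1 reached 43.7% of all genes against 80% of the 10, knockdown size3 reached 35.5% against 60%, and knockdown 2 reached 7.95% against 0%. The control shares of all genes were 1.38% for label 1, 0.315% for label 2 and 5.49% for size3, where the 10 genes gave 10%, 0% and 0%. Both knockdown 1 and knockdown size3 had a peak at 6 of the 10 genes and at 23.4% of all genes. A peak in at least 1 knockdown library and in no control library was found at 7 of the 10 genes and at 52.0% of all genes. No library had a peak at 2 of the 10 genes and at 41.3% of all genes. The members were a hand-picked list, chosen with earlier results of these data known, so these shares are a description and no test was made of them.

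**Figure D1:**
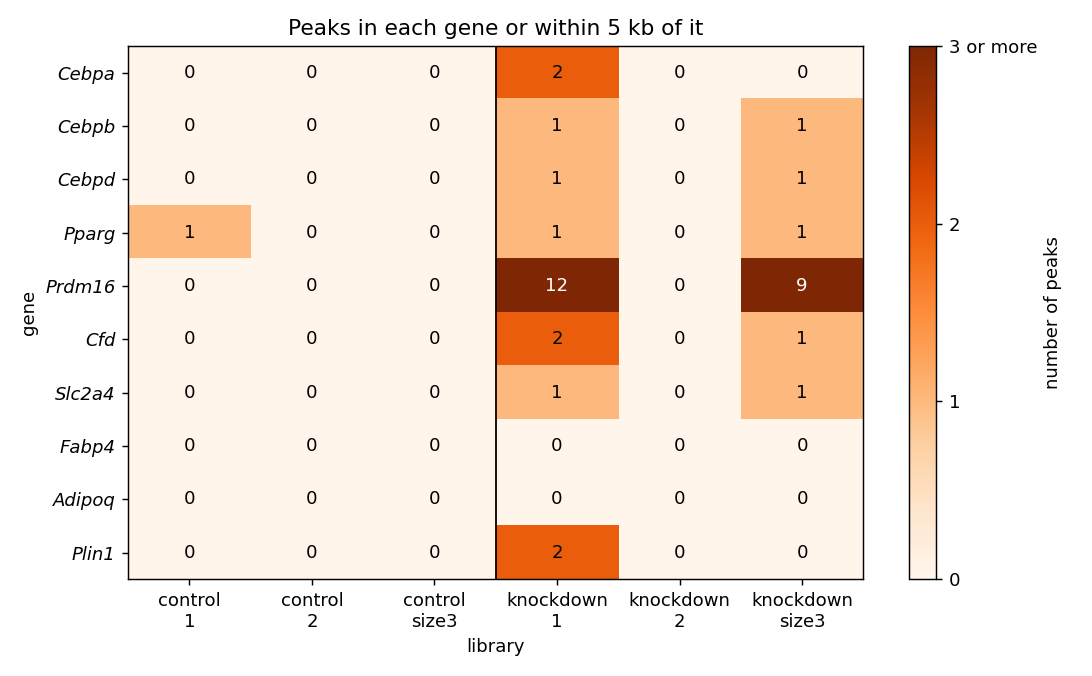
Number of peaks in each of the 10 genes or within 5 kb of it (rows) in the 3 control and 3 knockdown libraries (columns), with colour on a scale that ends at 3 or more. All but 1 of the peaks stand in the knockdown 1 and knockdown size3 columns, Prdm16 has 12 and 9, and the Fabp4 and Adipoq rows are 0 throughout.

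Longer genes held a peak more often, and the 10 genes are of very unequal length. The 8 genes under 20 kb had a peak in knockdown 1 in 6 cases and in knockdown size3 in 4. Of all genes under 20 kb, 31.0% and 23.6% had one in these libraries. Prdm16, at 321 kb, and Pparg, at 130 kb, are the long members, and both had peaks in both libraries. Of all genes of 100 kb or more, 77.6% had a peak in knockdown 1 and 68.1% in knockdown size3, so a peak somewhere in a gene of that size was common. The median number of peaks was 1 over the members and 0 over all genes in both libraries.

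The start sites are shown because 4 of the 10 knockdown 1 peaks outside Prdm16 lay over one. Each window is the RefSeq sequence (GRCm38.p6) from 250 bases before to 50 bases after an annotated start, written 5′ to 3′ along the gene. Of the 10 genes, 7 had an entry, with 9 windows in all, since Pparg has 3. No entry matched Cebpd, Slc2a4 or Fabp4. Capitals mark every match, on either strand, to the GC box GGGCGG, the pentamer CCAAT, the TATA form TATAAA, the E2F form TTCCCGCC, the E-box forms CACGTG and CAGGTG, and the C/EBP form TTGCGCAA. Some matches overlap, so a run of capitals may hold more than 1. The first 5 windows below lay under a knockdown 1 peak and the sixth under none.
Cebpb, chr2:167688665-167688964, plus strand: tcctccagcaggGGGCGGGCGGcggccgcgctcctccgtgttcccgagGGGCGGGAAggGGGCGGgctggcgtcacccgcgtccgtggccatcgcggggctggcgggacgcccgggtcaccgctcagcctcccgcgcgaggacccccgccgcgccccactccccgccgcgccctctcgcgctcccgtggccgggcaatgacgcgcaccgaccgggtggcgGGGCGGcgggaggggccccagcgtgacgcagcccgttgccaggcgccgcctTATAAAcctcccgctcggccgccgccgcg
Cebpa, chr7:35119043-35119342, plus strand: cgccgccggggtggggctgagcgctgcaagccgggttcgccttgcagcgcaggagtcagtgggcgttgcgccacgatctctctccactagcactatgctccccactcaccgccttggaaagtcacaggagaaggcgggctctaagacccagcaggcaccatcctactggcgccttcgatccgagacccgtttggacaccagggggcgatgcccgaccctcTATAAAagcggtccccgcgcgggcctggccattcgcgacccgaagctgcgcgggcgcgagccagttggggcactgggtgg
Pparg (the first window), chr6:115360894-115361193, plus strand: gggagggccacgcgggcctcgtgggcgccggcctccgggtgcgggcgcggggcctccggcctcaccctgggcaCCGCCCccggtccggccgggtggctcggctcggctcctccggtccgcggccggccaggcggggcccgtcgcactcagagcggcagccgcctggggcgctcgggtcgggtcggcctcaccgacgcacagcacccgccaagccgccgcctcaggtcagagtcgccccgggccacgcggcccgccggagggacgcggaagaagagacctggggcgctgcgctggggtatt
Pparg (the second window), chr6:115362099-115362398, plus strand: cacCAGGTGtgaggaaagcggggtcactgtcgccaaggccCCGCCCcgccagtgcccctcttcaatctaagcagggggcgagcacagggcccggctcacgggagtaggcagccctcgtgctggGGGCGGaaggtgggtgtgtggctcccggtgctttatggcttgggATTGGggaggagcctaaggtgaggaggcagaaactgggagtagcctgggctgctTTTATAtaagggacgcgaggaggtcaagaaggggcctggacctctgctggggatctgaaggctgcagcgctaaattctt
Cfd, chr10:79890603-79890902, plus strand: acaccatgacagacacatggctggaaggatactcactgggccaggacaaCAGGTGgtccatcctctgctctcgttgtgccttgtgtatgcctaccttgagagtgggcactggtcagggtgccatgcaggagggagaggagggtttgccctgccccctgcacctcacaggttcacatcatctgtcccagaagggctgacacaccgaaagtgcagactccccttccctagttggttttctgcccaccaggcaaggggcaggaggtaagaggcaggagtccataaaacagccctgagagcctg
Pparg (the third window), chr6:115421816-115422115, plus strand: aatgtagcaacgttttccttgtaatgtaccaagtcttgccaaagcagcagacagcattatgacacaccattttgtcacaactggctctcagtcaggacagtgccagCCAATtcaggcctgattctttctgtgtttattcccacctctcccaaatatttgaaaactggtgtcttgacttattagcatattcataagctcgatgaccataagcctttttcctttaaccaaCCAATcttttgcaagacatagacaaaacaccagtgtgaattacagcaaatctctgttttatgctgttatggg

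Among these letters the Cebpb window stood out, with 5 GC boxes, 1 TATA form and 1 E2F form that shares bases with a GC box. Of 21263 promoter windows of protein-coding genes, 46.2% held the GC box, 12.6% the TATA form and 2.85% the E2F form. The Cebpa window held 1 TATA form and none of the others. The first Pparg window held 1 GC box, and the second held 2 of them, with 1 CCAAT, 1 TATA form and 1 CAGGTG. The Cfd window held 1 CAGGTG, a form found in 19.7% of windows. CACGTG, in 7.84% of all windows, and TTGCGCAA, in 0.221%, were in none of the 9. CCAAT was in 38.2% of all windows and had 2 matches in the third Pparg window. A general E-box, CANNTG, which takes in the other E-box forms, was in 69% of windows and in 7 of these 9. A match describes letters only and is no evidence that a factor binds there.

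Base composition separated the windows further. The share of G and C was 80.7% at Cebpb, 67.3% at Cebpa and 80.3% and 62.7% in the first and second Pparg windows, against a median of 56.3% over all windows. It was 61% at Prdm16, 57.7% at Cfd, 55.7% at Plin1, 50% at Adipoq and 40.3% in the third Pparg window. Of the 5 member windows with at least 60% G and C, 4 lay under a knockdown 1 peak, all but that of Prdm16. Of the 4 below 60%, only that of Cfd did. Over all windows, 27.1% of those at or above 60% and 8.87% of those below lay under a knockdown 1 peak, so the same contrast ran through the whole table. In all, 5 of the 9 member windows lay under a knockdown 1 peak and 1 under a knockdown size3 peak, that of Cebpb, against 16.0% and 7.55% of all windows. Base composition moved with the peaks, and its part in them was not tested.

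Cebpb, whose product starts the adipogenic cascade, had the most reads of any peak at the 10 genes. Its gene lies at chromosome 2, 167688915 to 167690432. In knockdown 1 a peak of 5737 bp ran from 167684561 to 167690297, across the start and most of the gene, with 510 reads and a fold enrichment of 3.72 over input. The authors' peak score there, a log-scaled p-value that rises with confidence, was 171.11, above 98.9% of that list, and the peak was wider than 98.6% of it. Its fold exceeded only 18.5% of the list, and its false discovery rate was 5.33%. In knockdown size3 a peak of 1472 bp, from 167688697 to 167690168, lay wholly within it, with 48 reads, a fold of 5.05 and a rate of 3.95%. The summits, the points of most reads, were 282 bp apart, 992 bp and 710 bp into the gene. The knockdown 1 peak covered the whole promoter window printed above and the size3 peak most of it. Knockdown 2 had no peak closer than 686 kb, and the nearest control peak, in control size3, was 148 kb away.

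Cebpd, the partner of Cebpb in the early phase, had a similar arrangement at its lower-coordinate end. The gene lies at chromosome 16, 15887286 to 15889545. Knockdown 1 had a peak from 15886338 to 15888431 across that end, with 144 reads, a fold of 3.47 and a false discovery rate of 4%. Knockdown size3 had a peak of 555 bp from 15886598 to 15887152, which ended 134 bp short of the gene and held only 12 reads, with a fold of 9 and a rate of 7.01%. The size3 peak lay wholly inside the knockdown 1 peak, but their summits were 865 bp apart. Their scores of 52.03 and 50.98 stood just above the peak caller's cutoff and exceeded only 10.5% and 5.87% of their lists. The nearest peak of another library was 213 kb away, in knockdown 2.

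Cebpa, the later member of the family, was marked in knockdown 1 alone. The gene lies at chromosome 7, 35119293 to 35121928, and 2 peaks framed it. The first, from 35117628 to 35121389, covered the start and most of the gene with 258 reads and a fold of 2.44, lower than all but 0.0608% of that list. The second, from 35121898 to 35123413, crossed the far end with 82 reads and a fold of 4.42. Knockdown size3 had its nearest peak 33.7 kb away and knockdown 2 at 980 kb. Thus all 3 C/EBP genes had a knockdown 1 peak across their lower-coordinate end, and 2 of them had an overlapping size3 peak.

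**Figure D2:**
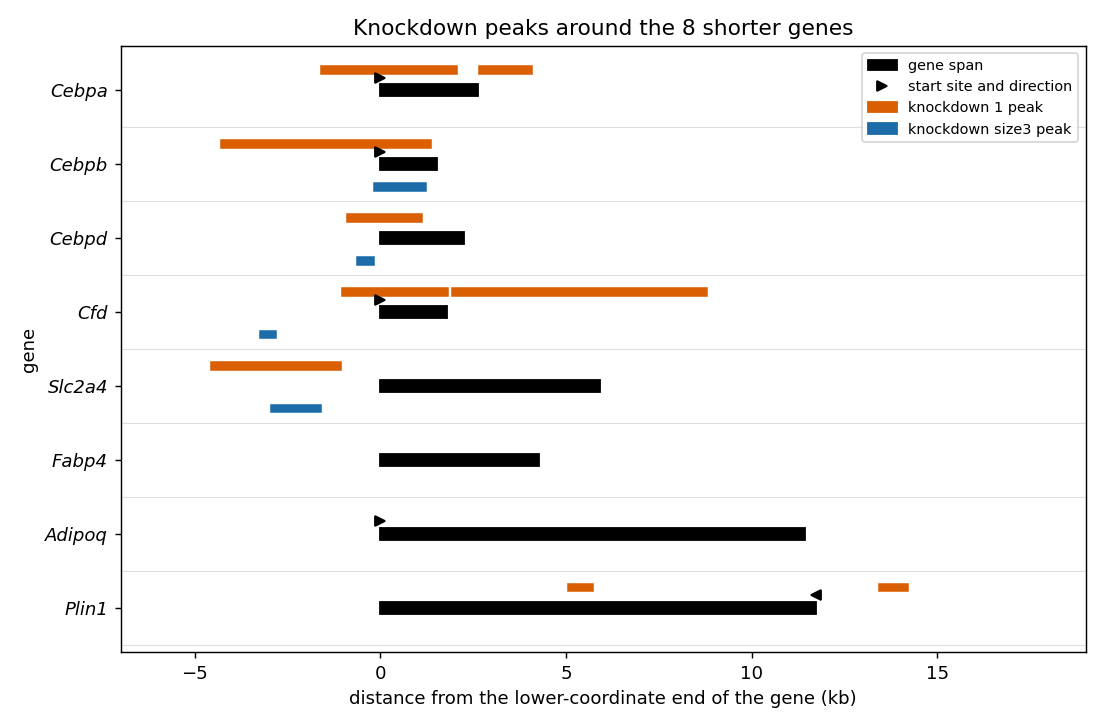
Position of knockdown 1 and knockdown size3 peaks (coloured bars) along the 8 genes under 20 kb (black bars), in kb from the lower-coordinate end of each gene, with arrowheads at the starts of the genes that have a promoter entry. Peaks of both libraries coincide at Cebpb, Cebpd and Slc2a4, and the Fabp4 and Adipoq rows hold none.

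Pparg, the central regulator of the fat cell, was the only one of the 10 genes with a peak in a control library. The gene lies at chromosome 6, 115360879 to 115490404. In knockdown 1 a peak of 1834 bp, from 115360705 to 115362538, covered the first and second start windows, with 159 reads, a fold of 3.13 and a false discovery rate of 1.81%. In knockdown size3 the peak lay at the other end, from 115489612 to 115490237, with 23 reads, a fold of 11.04 and a rate of 1.18%, and its score of 109.89 exceeded 97.1% of that list. In control 1 a peak from 115404423 to 115405223 lay 43.9 kb into the gene, with 28 reads, a fold of 5 and a rate of 100%. The 3 libraries thus each had 1 peak in Pparg, and none of these overlapped another. The third start window, 60.9 kb beyond the first, lay under no peak. Pparg is known to use alternative starts, one of which serves an isoform enriched in fat cells, but the table does not say which transcript a window belongs to.

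Prdm16 held more peaks than the other 9 genes together. The gene covers chromosome 4, 154316122 to 154637360, on the minus strand. Knockdown 1 had 12 peaks inside it and knockdown size3 had 9, while knockdown 2 and the 3 control libraries had none. The median gene of 100 kb or more held 2 peaks in knockdown 1 and 1 in knockdown size3, and 98.8% and 97.7% of such genes held fewer than Prdm16. Scaled to length, Prdm16 had 0.362 and 0.272 peaks per 10 kb of gene and flanks, against means of 0.0899 and 0.0759 over genes of that size. These densities exceeded those of 95.9% and 92.2% of such genes. None of the 21 peaks covered the start window, and the summits nearest to the start lay 23.1 kb and 22.9 kb into the gene.

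The peaks of both libraries were spread differently along Prdm16. In knockdown 1, 3 of the 12 summits fell in the first 107 kb of the gene, 4 in the next 107 kb and 5 in the last. In knockdown size3, 7 of the 9 fell in the first stretch, with 1 in each of the others. Peaks of both libraries overlapped at only 2 places. The first lay at 154536323 to 154536766, 101 kb from the start, where knockdown 1 had 28 reads and a fold of 5.5 and knockdown size3 had 17 reads and a fold of 7.2. The second lay at 154614302 to 154614749, 23.1 kb from the start, with 34 reads and a fold of 5.63 in knockdown 1 and 13 reads and a fold of 8.1 in knockdown size3. The summits were 205 bp apart at the first place and 229 bp at the second. The 21 peaks held 28 to 88 reads in knockdown 1 and 11 to 31 in knockdown size3, around medians of 46 and 17 over all peaks of these lists.

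**Figure D3:**
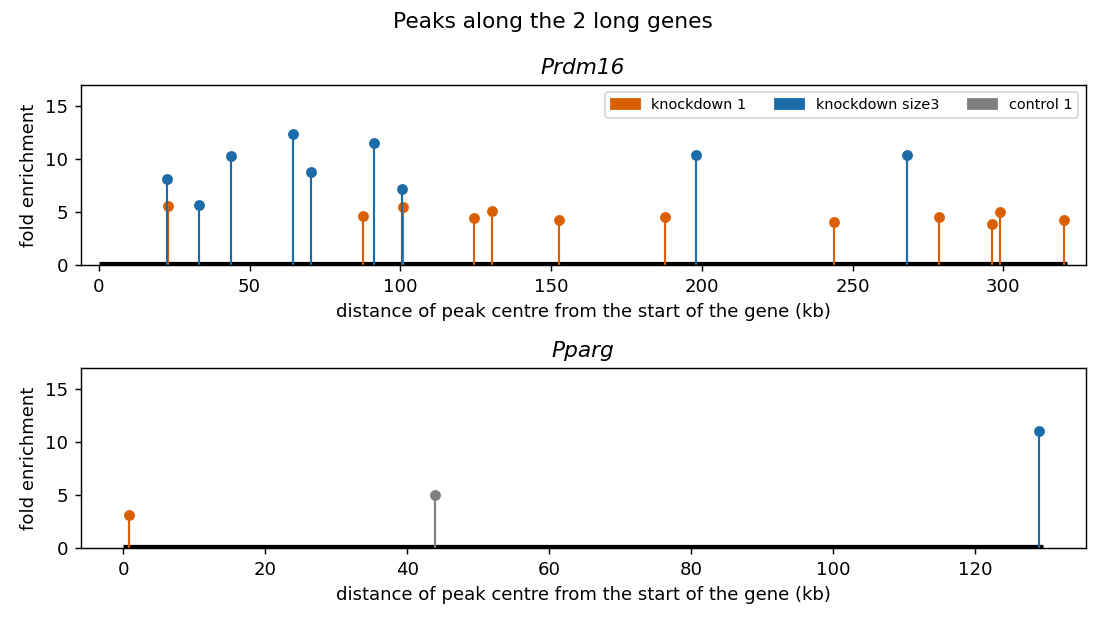
Fold enrichment over input of each peak (vertical axis) against the distance of its centre from the start of the gene in kb (horizontal axis) along Prdm16 and Pparg, by library. The Prdm16 peaks of knockdown size3 crowd into the first 107 kb, and the Pparg peaks of knockdown 1, control 1 and knockdown size3 stand apart at the start, inside and at the far end.

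Among the genes of fat cell function, Cfd had the broadest coverage. It encodes adipsin, also known as complement factor D, a serine protease secreted by fat cells, and lies at chromosome 10, 79890853 to 79892655. In knockdown 1 a peak from 79889774 to 79892700 covered the whole gene, with its summit 45 bp from the start, 184 reads and a fold of 3.36. A second knockdown 1 peak of 6945 bp began 78 bp past the gene, at 79892733, and ended at 79899677, reaching into Med16, which encodes a Mediator subunit. It held 494 reads and was wider than 99.5% of the list. The size3 peak within 5 kb, from 79887558 to 79888054, lay 2799 bp before the gene and overlapped Elane, the neutrophil elastase gene, with 21 reads and a fold of 4.87. It overlapped no peak of knockdown 1. A further size3 peak, from 79898487 to 79899439, lay inside the wider knockdown 1 peak but 5832 bp past Cfd.

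At Slc2a4, which encodes the insulin-responsive glucose transporter GLUT4, the peaks lay outside the gene (chromosome 11, 69942286 to 69948216). Knockdown 1 had a peak from 69937662 to 69941258, with 225 reads, a fold of 3.91 and a false discovery rate of 2.49%. Knockdown size3 had one from 69939287 to 69940722, wholly within it, with 40 reads, a fold of 5.92 and a rate of 1.96%. Their summits were 26 bp apart, the closest pair at the 10 genes. Both peaks overlapped the neighbouring gene Ybx2, which encodes an RNA-binding protein of germ cells, and they ended 1028 bp and 1564 bp short of Slc2a4. With the gene body alone in place of the 5 kb window, Slc2a4 had no peak in any library.

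Plin1, which encodes perilipin 1, the coat protein of lipid droplets, had 2 peaks in knockdown 1. The gene lies on the minus strand at chromosome 7, 79721164 to 79732904. A peak from 79726161 to 79726924 lay inside it, with 49 reads and a fold of 4.33, and another, from 79734542 to 79735406, lay 1638 bp before the start, with 35 reads and a fold of 6.03. The start window itself was under neither. The nearest size3 peak was 77.8 kb away.

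Fabp4 and Adipoq encode the fatty acid carrier and the hormone adiponectin that mark a mature fat cell. The peak nearest to Fabp4 (chromosome 3, 10204342 to 10208616) was 11.8 kb away in knockdown size3, and that of knockdown 1 was 40.9 kb away. The peak nearest to Adipoq (chromosome 16, 23146536 to 23157968) was 37.8 kb away in knockdown 1, and that of knockdown size3 was 146 kb away. Over all protein-coding genes the median distance to the nearest peak was 10.6 kb in knockdown 1 and 19.8 kb in knockdown size3, so Adipoq was farther from a peak than the median gene in both. In knockdown 2 the distance ranged over the 10 genes from 190 kb at Adipoq to 980 kb at Cebpa, with a median of 440 kb, against 240 kb over all genes. In control size3 the nearest of the 10 genes to a peak was Cfd, at 57.7 kb. The absence of a peak says only that the authors' threshold was not passed, since reads outside peaks are not in the lists.

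Read density and fold enrichment were compared between the peaks over start windows and those inside Prdm16. In knockdown 1 the 4 peaks over a start window, at Cebpb, Cebpa, Pparg and Cfd, were 1834 to 5737 bp wide and held 3.41 to 4.82 reads per kb of peak per 1000000 reads. The 12 peaks in Prdm16 held 1.75 to 2.51 on the same scale, with no overlap between these sets. Fold enrichment ran the other way, from 2.44 to 3.72 over start windows and from 3.89 to 5.63 in Prdm16. The whole list of knockdown 1 showed the same order: its 2765 peaks over a start window had a median of 3.48 reads per kb per 1000000 and a median fold of 3.88, and its other 18633 had medians of 2.42 and 5.2. The remaining knockdown 1 peaks at the 10 genes held 2.19 to 3.85, with folds of 3.39 to 6.03, and reached into both ranges. Among them were the peaks at Cebpd and Slc2a4, which had no start window to compare. In knockdown size3 the single member peak over a start window, at Cebpb, held 3.99 reads per kb per 1000000 with a fold of 5.05, while the 9 in Prdm16 held 2.64 to 3.55 with folds of 5.71 to 12.38. The knockdown size3 peaks at Cfd and Pparg, over no start window, held more than that at Cebpb, at 5.17 and 4.49. Those at Slc2a4 and Cebpd held less, at 3.41 and 2.64. The medians of that whole list were 3.35 and 6.96 over start windows and 3.24 and 8.22 elsewhere. Fold is set against the local input background, so a peak with more reads need not have the higher fold.

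**Figure D4:**
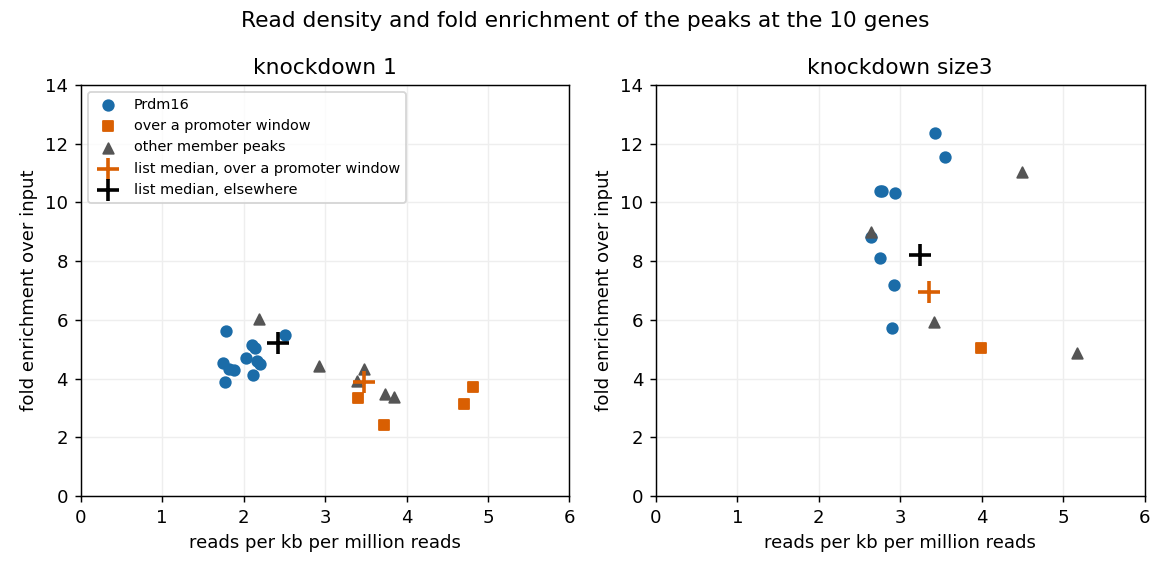
Reads per kb of peak per 1000000 reads (horizontal axis) against fold enrichment over input (vertical axis) for each peak at the 10 genes, in knockdown 1 (left) and knockdown size3 (right), with crosses at the medians of the whole list. In knockdown 1 the 4 peaks over start windows lie at 3.41 or more reads per kb per 1000000 and the 12 Prdm16 peaks at 2.51 or fewer. The other peaks there lie from 2.19 to 3.85.

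Agreement between both knockdown libraries at these genes was partial. Of the 22 knockdown 1 peaks at the 10 genes, 6 (27.3%) overlapped a size3 peak, and of the 14 size3 peaks 5 (35.7%) overlapped a knockdown 1 peak. Over the whole lists the shares were 9.16% of 21398 and 11.6% of 17592. Without Prdm16, 4 of 10 and 3 of 5 peaks overlapped. Peaks at the 10 genes numbered 22 in knockdown 1, 14 in knockdown size3, 1 in control 1 and 0 in each other library. The means were 12 ± 11.1 (SD, n = 3) and 0.333 ± 0.577 (SD, n = 3), and their difference of 11.7 was within the spread of the libraries (exact two-sided permutation p = 0.4). It was 17.7 without knockdown 2 and 6.67 without knockdown 1. Per 1000 peaks of each list the means were 0.608 and 0.432, a difference of 0.176 (exact permutation p = 1).

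Other genes of the fat cell were taken from 3 further lists, with 76 genes in all, each of which matched the table. Of these, 41 had a peak in knockdown 1 (53.9%), 9 in knockdown 2 (11.8%) and 39 in knockdown size3 (51.3%). The control libraries had 4 (5.26%, label 1), 1 (1.32%, label 2) and 7 (9.21%, size3). The means of 29.7 ± 17.9 (SD, n = 3) and 4 ± 3 (SD, n = 3) differed by 25.7, and every knockdown library lay above every control library (exact two-sided permutation p = 0.1, the smallest that 20 assignments allow). That direction turned per 1000 peaks of the list, where the knockdown mean of 2.04 lay below the control mean of 4.47, again without an overlap of the groups (difference -2.43, exact permutation p = 0.1). With only peaks of a score of at least 100, or of a false discovery rate of at most 5%, knockdown 2 was at 0 like the control libraries, and the groups overlapped (exact permutation p = 0.4 for each). The second threshold left 51 peaks in the whole knockdown 2 list. It left 1 in control 1 and 0 in the others, so counts near 0 there were all but fixed in advance. The background shares given above for all genes were 43.7%, 7.95% and 35.5% in knockdown and 1.38%, 0.315% and 5.49% in control libraries.

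By role, the adipogenic factors and cofactors had 21 of 31 genes (67.7%) with a knockdown 1 peak and 18 (58.1%) with a knockdown size3 peak. The shares of all genes were 43.7% and 35.5%. Ppargc1a, the coactivator of PPAR gamma that drives mitochondrial genes, had peaks in all 6 libraries: 1 in each control library, and 4, 2 and 2 in knockdown 1, 2 and size3, over a span longer than that of Prdm16. Arid5b, a chromatin-binding regulator, had 1 in control 1 and 2, 4 and 1 in the knockdown libraries. Wwtr1, which encodes the PPAR gamma repressor TAZ, had 3 in each knockdown library and none in control libraries. Wwtr1 was the only one of these 3 without a control peak, but the 3 were named for having peaks in most libraries. All 3 span 100 kb or more. At that size 77.6% of all genes had a peak in knockdown 1 and 68.1% in knockdown size3. Of the 31 genes, 21 had a knockdown peak and no control peak, as had 52.0% of all genes.

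The lipid handling genes had 12 of 26 (46.2%) with a peak in knockdown 1 and 13 (50%) in knockdown size3. Of all genes, 43.7% and 35.5% had one. Acaca, which encodes acetyl-CoA carboxylase, had 2, 1 and 3 peaks in knockdown 1, 2 and size3, and Elovl6, a fatty acid elongase gene, had 4, 1 and 3. Acly, the ATP citrate lyase gene, had 1 in control size3, 1 in knockdown 1 and 4 in knockdown size3. Lpl, the lipoprotein lipase gene, had 1 each in knockdown 2 and knockdown size3. The list of hormones, receptors and thermogenesis had 8 of 19 (42.1%) in both knockdown 1 and size3, against 43.7% and 35.5% of all genes. There, the insulin-like growth factor receptor gene Igf1r had 1 peak in control size3, 6 in knockdown 1 and 3 in knockdown size3, and the insulin receptor gene Insr had 1 each in knockdown 1 and knockdown size3. Of the adiponectin receptor genes, Adipor1 had 1 in knockdown 1 and 2 in knockdown size3, and Adipor2 had 1 in control 1 and 1 in knockdown 2. Acaca, Elovl6, Igf1r and Insr span 100 kb or more. Of all genes of that size, 77.6% had a peak in knockdown 1 and 68.1% in knockdown size3.

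Genes of other lineages were counted the same way. Of 20 osteoblast lineage genes, 9 (45%) had a peak in knockdown 1, 2 (10%) in knockdown 2 and 10 (50%) in knockdown size3. Of 15 marker genes of muscle, cartilage, blood, vessel, nerve and epithelium, 9 (60%), 3 (20%) and 5 (33.3%) had one. The shares of all genes in these libraries were 43.7%, 7.95% and 35.5%. The 10 fat cell regulators had the highest share of these lists in knockdown 1, 80%, and in knockdown size3, 60%. The adipogenic factors and cofactors came next, with 67.7% and 58.1%. In knockdown 2 the 10 genes had the lowest share, 0%, against 11.8% of the 76 further fat cell genes and 7.95% of all genes. The 10 genes and the lists were hand-picked with earlier results of these data known, and no difference between lists was tested.

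**Figure D5:**
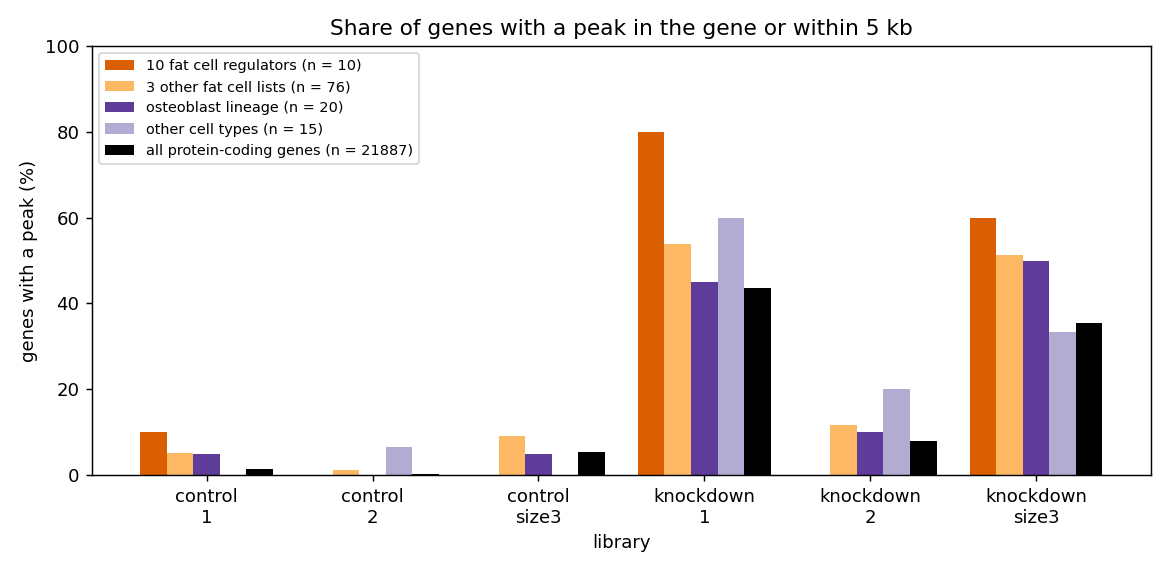
Percent of genes with a peak in the gene or within 5 kb (vertical axis, from 0) in each library, for the 10 fat cell regulators, the 76 genes of 3 further fat cell lists, 20 osteoblast lineage genes, 15 markers of other cell types and all 21887 protein-coding genes. Bars for all genes stand at 43.7% in knockdown 1 and 35.5% in knockdown size3, and those for the fat cell regulators at 80% and 60%.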

How the data were processed

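The data were 6 deposited peak lists, 1 for each MACF1 immunoprecipitate of MC3T3-E1 cells, 3 control and 3 knockdown, with groups and labels taken from sample titles. Per the submitters' processing notes, reads were handled with cutadapt and Bowtie2 on GRCm38. Per the file headers, MACS 1.4.2 was run on uniquely mapped reads of each library against its own input, unpooled, with a p cutoff of 1.00e-05 and at most 1 read at a position. Peaks carry a deposited count of whole reads. The deposited score is the negative log10 of p, multiplied by 10, the deposited fold enrichment is a ratio to local background, and the deposited false discovery rate is a percent. Scores and folds are the authors'. Their ranks were taken within a list, but a score threshold was applied to all lists alike. The highest fold in any list broke ties among named genes, although median folds ranged from 4.98 in knockdown 1 to 15.6 in knockdown 2.

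Gene spans and start windows came from RefSeq tables of GRCm38.p6. A peak was assigned to each gene whose span or 5 kb flank it overlapped by at least 1 bp. Distances to a gene start were taken from the end of the span. Libraries were compared by exact two-sided permutation of 3 against 3, which cannot go below p = 0.1. Reads per kb of peak were scaled to 1000000 reads after duplicate removal. The counting step was tested on simulated data. Analyses used Python 3.11.15 and pandas 2.3.3. The members and lists were chosen with earlier results of these data known. All 10 members were named, and of the other fat cell lists at most 4 genes each, ranked by how many libraries had a peak, ties by the highest fold; 1 gene so chosen is not reported here. Alternatives changed the flank, the overlap, the peak threshold, the list length, the scale, the replicate label as a block and the libraries used.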

Additional observations from a re-analysis of the deposited data

How the results depend on the processing

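Under every flank and threshold tried on the whole lists, the mean number of the 10 genes with a peak was higher in knockdown libraries. The difference stayed within the spread of the libraries each time (exact two-sided permutation p = 0.4). Knockdown 2 had a peak at none of the 10 genes in any of these settings. Leaving out each library in turn gave differences of 2.67 (without knockdown 1) to 6.67 (without knockdown 2) for genes with a peak, 6.67 to 17.7 for peaks at these genes, and 20 to 36 for the genes of the 3 further lists, with the same libraries at both ends. Per 1000 peaks, the differences were -0.193 for genes with a peak, 0.176 for peaks at these genes and -2.43 for the further lists. With each list cut to its best 198 peaks, as many as the shortest holds, none of the 10 genes had a peak in any library, so both of their differences were 0, and that of the further lists was -0.333. With a score of at least 100, 3 of the 10 genes in knockdown 1 and 1 in knockdown size3 had a peak, a difference of 1.33 for genes and for peaks, and the further lists gave 4.67. With a false discovery rate of at most 5%, the numbers were 7 and 4, no control or knockdown 2 peak was left at the 10 genes, and the further lists gave 23.3. At both thresholds knockdown 2 and all control libraries were at 0 for the further lists, which ended the separation of the groups there (exact permutation p = 0.4 in each case, against 0.1). With the gene body alone, 3 of the 10 genes had peaks in fewer libraries and 7 in as many. The library label as a replicate block left the differences at 4.33, 11.7 and 25.7, with exact p of 0.5, 0.5 and 0.25 over 8 sign flips, of which 0.25 is the smallest. Peaks of same-labelled libraries did not deviate together over genes (correlations of -0.04, 0.07 and 0.07), which does not show that a label marks nothing shared. Both size3 libraries had low redundant rates, 0.01 and 0.02, and inputs of 10529079 (control) and 10199730 (knockdown) reads. The other inputs held 26467245 to 28266305 reads, and whether a label marks a batch was not tested. Reads per peak were few in some lists: the median knockdown 2 peak held 9 reads, and 98.4% of peaks there had a false discovery rate of 100%.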
